A study of Saccharomyces cerevisiae with 19 samples.

Results

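The genes of the cytosolic small ribosomal subunit in budding yeast (Saccharomyces cerevisiae) were read out of ribosome profiling and mRNA-seq libraries. Members were all genes with a standard name of RPS and a number, with or without A or B. RPS22B, the copy of RPS22A, was not analysed here. This gave 55 genes of the 5758 gene identifiers in the files, 46 of them in 23 pairs of an A and a B copy. The single-copy genes (8) include RPS2, RPS3, RPS12, RPS13, RPS15, RPS20 and RPS31, and RPS22A stood alone. All 55 had counts in all 19 libraries, with no count below 122, and all 55 passed the filter on low counts in every comparison.

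The small subunit binds the mRNA, scans it and reads its codons against tRNA, and a mature particle holds a single molecule of each of its proteins. Yeast carries most of these genes as duplicated copies whose proteins are identical or nearly so, and many copies hold an intron. In growing yeast the genes are transcribed together under RAP1, FHL1, IFH1 and SFP1, in response to TOR and protein kinase A signalling. Footprints are the mRNA fragments that a ribosome shields from nuclease, so that footprints relative to mRNA give a measure of ribosome load per transcript.

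All samples were wild-type cells of BY4741, a MATa laboratory strain with deletions at HIS3, LEU2, MET17 and URA3, grown in YPD medium to an OD600 of 0.4, with cycloheximide given for 1 min before filtration. The samples differ in how libraries were made, with or without random bases (N) in the linker and the reverse transcription primer. Footprint groups were DualLigation (n = 3), 4+3N low, Nonrandom low, 4N, 4+3N and Nonrandom (n = 2 each), and mRNA groups were 4N, 4+3N and Nonrandom (n = 2 each). The labels do not say what low means, which oligonucleotides stand behind each name, or whether replicates came from separate cultures, so p-values measure the spread between these samples, which may be technical. Total counts ran from 6735945 to 13478946 in DualLigation, from 827353 to 2667016 in the low libraries, from 6906778 to 11656814 in the other 6 footprint libraries, and from 1838817 to 3497303 in mRNA. STE2, a MATa gene, lay between 123 and 797 CPM (counts scaled to a fixed library total). MFA1 and MFA2, which also belong to MATa, ran from 1.47 to 248 and from 13.2 to 312 CPM. STE3 and MF(ALPHA)1, genes of the other mating type, reached at most 7.61 and 0.436 CPM. The lowest MFA1 value thus lay below the highest of STE3. LEU2 had 1 read in all, URA3 and MET17 had none, and HIS3, which the strain lacks in part, lay between 58.3 and 123 CPM. The file of Nonrandom footprint replicate 1 gives its genes in 2 lists with unequal counts, of which the later one was used. Results that change with the earlier one are given under the processing settings. The 3 DualLigation and 4 low files order their genes differently from the other 12, so a difference in how these 7 files were made cannot be told apart from the preparation.

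The 55 genes took 6.80% to 7.36% of the counts in the 6 standard footprint libraries of 4N, 4+3N and Nonrandom (median 7.04%), against 7.79% to 8.59% in the 6 mRNA libraries (median 8.08%). These ranges did not overlap. In DualLigation the share was 7.31%, 8.63% and 7.03%. RPS0A alone held 5970, 34575 and 22027 CPM of it, against 1681 to 1885 CPM in the 6 standard footprint libraries. The 8 single-copy genes made up a median of 2.78% of footprint and 3.01% of mRNA counts, and the 46 paired genes 4.06% and 4.85%. Single genes ran over a wide range of counts. The mean over the 6 footprint libraries was 109.9 ± 25.9 CPM for RPS6B, the lowest, and 4300.2 ± 110.0 CPM for RPS3, near the upper end (SD, n = 6), with a median gene at 783 CPM. In mRNA the means ran from 173 ± 8.71 CPM for RPS24B to 5348 ± 458 CPM for RPS31 (SD, n = 6), with a median gene at 1091 CPM. CPM are not divided by gene length, so these values rank counts and not levels per transcript.

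**Figure D1:**
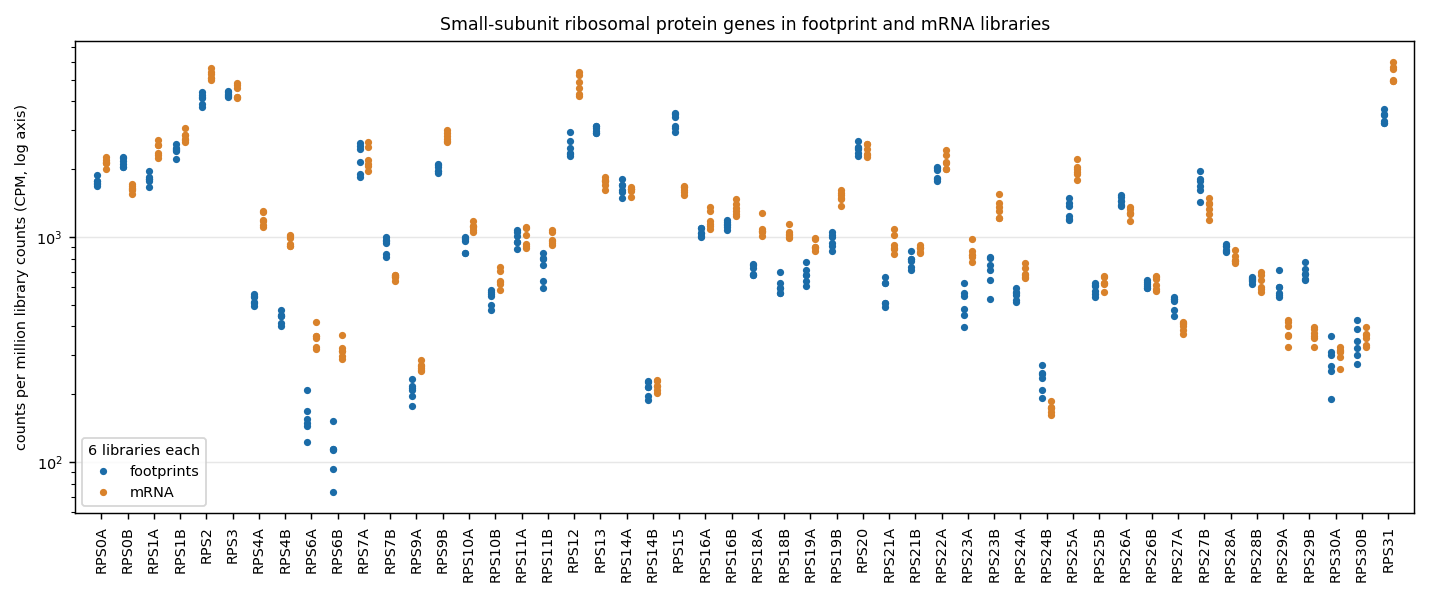
CPM (log axis) of 50 of the 55 genes; each blue point is 1 of 6 standard footprint libraries and each orange point 1 of 6 mRNA libraries. RPS15 and RPS13 lie higher in footprints, RPS4A, RPS4B, RPS6A, RPS6B and RPS12 higher in mRNA, with no overlap between the assays for these genes.

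Levels per kilobase of coding length were compared for the 20 genes without an intron in the coding sequence, since only for these does the annotated span equal the coding length. They include RPS1A, RPS1B, RPS2, RPS3, RPS12, RPS15, RPS20, RPS22A, RPS25A, RPS25B, RPS26A, RPS26B, RPS28A, RPS28B, RPS29A, RPS29B and RPS31. Among the 4 highest in footprints per kilobase were RPS15, whose product sits on the head of the subunit and is needed for export of the precursor from the nucleus, RPS31, made as a fusion to ubiquitin, and RPS20, another head protein. Their means were 7606 ± 625, 7410.1 ± 428 and 6735 ± 346 CPM per kb of footprints (SD, n = 6). Neighbours in this order overlapped from RPS15 to RPS20. Among the 4 lowest were RPS26B at 1702 and RPS25B at 1789 CPM per kb of footprints, each 1 copy of a pair.

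When A and B copies were summed, 13 proteins could be set side by side per kilobase. Of the 11 described here, footprints per kilobase ran from 7606 ± 625 CPM per kb for RPS15 through 7527 ± 190.3 for RPS28 and 7521 ± 632 for RPS29, both small proteins of the mRNA exit or head region, to 5376 ± 302 for RPS2, a protein near the mRNA entry (SD, n = 6). mRNA per kilobase was spread more widely. RPS31 and RPS12 were highest, at 11651 ± 999 and 11047 ± 1119 CPM per kb of mRNA, while RPS15 had 3792 ± 129.7 and RPS29 4391 ± 388. Across the 13 proteins the coefficient of variation within a library was 21.9% to 26.8% in the 6 footprint libraries, against 35.2% to 45.5% in the 6 mRNA libraries. Across the 11 it was 13.2% to 17.7% in footprints, against 29.7% to 40.6% in mRNA. The highest of these 11 proteins exceeded the lowest by 1.49 to 1.76 times in footprints, against 2.71 to 3.52 times in mRNA. Over all 13 the highest exceeded the lowest by 3.10 to 4.57 times in footprints, against 5.29 to 7.62 times in mRNA. The ranges over libraries did not overlap in any of these measures. The 12 libraries come from the same strain, and proteins are not replicates, so no test was made over them.

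**Figure D2:**
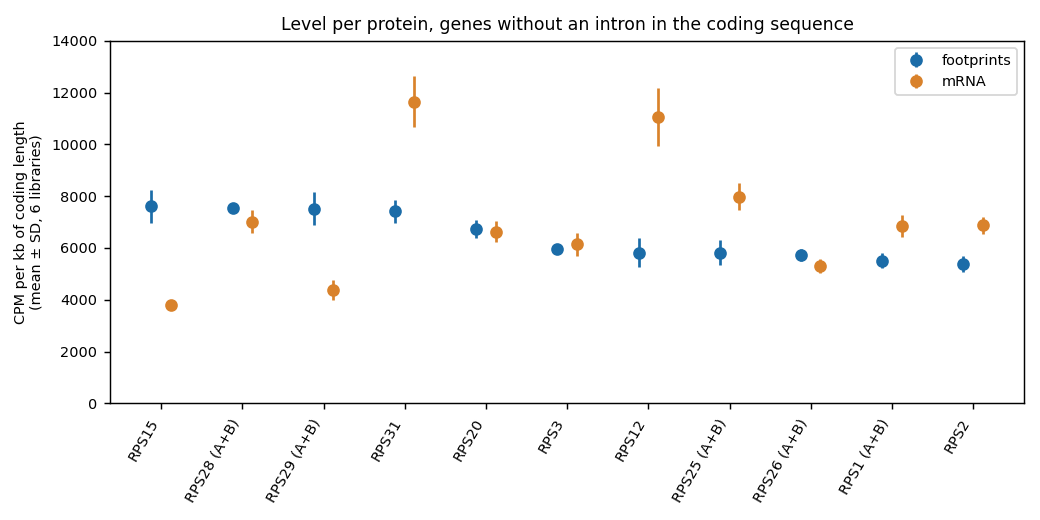
CPM per kilobase of coding length, summed over A and B copies, for 11 of the 13 proteins whose genes lack an intron in the coding sequence; points are means over 6 libraries and bars 1 SD. In footprints they lie between 5376 and 7606; in mRNA RPS31 and RPS12 lie highest and RPS15 and RPS29 low.

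The footprint to mRNA ratio, a relative measure of ribosome load, was tested gene by gene over the 6 footprint and 6 mRNA libraries. Among small-subunit genes the median log2 ratio was 0.36, against −0.042 over the 5523 genes tested, on the scale of TMM, a normalization that centres the bulk of genes. On that scale 36 of the 55 were higher in footprints and 10 lower (edgeR adjusted p under 0.05). Of all genes 85.5% were called, 40.6% higher and 44.8% lower, so a call by itself says little. Within an assay, libraries with the same replicate number deviated together, and the fit treats them as independent. The SE and p-values of the ratio may therefore be too small. The sign depends on the scaling. On library totals every ratio falls by about 0.55, and 12 members were called higher and 31 lower. Of the 5523 genes 972 were then called higher and 3868 lower, 87.6% in all. Under both scalings 12 members were called higher and 10 lower. The members' median exceeded that of all genes by 0.40 on either scale. This follows by construction, since the change of scale moves all genes by nearly the same amount. With the earlier count list of Nonrandom footprint replicate 1 the number called was 12 in place of 46. The share of all genes called with that list is not given here, so this loss is not read as particular to the family.

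RPS15 (YOL040C) lies on chromosome XV at 253149 to 253577, without an intron, and RPS13 (YDR064W) on chromosome IV at 579458 to 580452, with one, in the R64 annotation. RPS15 had a lowest, median and highest CPM of 2927, 3274 and 3551 in footprints, against 1540.0, 1639 and 1689.9 in mRNA. RPS13 had a lowest, median and highest CPM of 2902, 3008 and 3124 in footprints, against 1616, 1765 and 1846 in mRNA, and its product is an early-binding protein of the body of the subunit. Every footprint library lay above every mRNA library for both. Their log2 ratios were 1.56 (SE 0.063, edgeR adjusted p = 9.10e-17) and 1.33 (SE 0.051, edgeR adjusted p = 3.34e-17), the first the highest of the family, and they remained 1.00 and 0.78 on library totals. RPS29, a zinc-binding protein of the head, had both copies near the top. RPS29B had a lowest, median and highest CPM of 644, 684 and 775 in footprints, against 324, 368 and 399 in mRNA. RPS29A had a lowest, median and highest CPM of 543, 578 and 710.1 in footprints, against 324, 384 and 428 in mRNA. The footprint libraries again lay above all mRNA libraries. The log2 ratio was 1.46 (SE 0.051, edgeR adjusted p = 6.03e-18) for RPS29B and 1.18 (SE 0.063, edgeR adjusted p = 1.86e-14) for RPS29A. RPS7B, RPS24B and RPS0B also ranked high, with log2 ratios of 1.02, 0.98 and 0.94, and these 7 genes kept a positive sign on library totals.

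RPS6 and RPS4 had the lowest ratios. RPS6 is the small-subunit protein phosphorylated in response to TOR signalling, and RPS4 is a protein of the body. RPS6B (YBR181C) lies on chromosome II at 591712 to 592774 and RPS6A (YPL090C) on chromosome XVI at 377291 to 378395 (R64). RPS6B had a lowest, median and highest CPM of 73.6, 114 and 151 in footprints, against 286, 311 and 366 in mRNA. RPS6A had a lowest, median and highest CPM of 123, 151 and 209 in footprints, against 318, 359 and 419 in mRNA. All footprint libraries lay below all mRNA libraries for both copies. The log2 ratio was −0.98 (SE 0.10, edgeR adjusted p = 4.25e-09) for RPS6B and −0.64 (SE 0.075, edgeR adjusted p = 3.13e-08) for RPS6A. RPS4A and RPS4B had −0.63 and −0.58, and RPS23B, a copy of the gene for a decoding-centre protein, −0.38. RPS12 had a lowest, median and highest CPM of 2298, 2421 and 2935 in footprints, against 4236, 4730.3 and 5383 in mRNA. RPS12 was the single-copy gene with the lowest log2 ratio, at −0.38 (SE 0.07, edgeR adjusted p = 2.39e-05), and its footprint libraries lay below all mRNA libraries. These 6 genes were called lower under both scalings.

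Other single-copy genes lay between these ends. RPS20 had a lowest, median and highest CPM of 2299, 2474 and 2669 in footprints, against 2256, 2391 and 2596 in mRNA, which overlapped. RPS3 had a lowest, median and highest CPM of 4175, 4278 and 4468 in footprints, against 4123, 4389 and 4829 in mRNA, which also overlapped, and its product lines the mRNA entry. The log2 ratios were 0.57 for RPS20 and 0.50 for RPS3 on the TMM scale, both called higher by edgeR, and 0.024 and −0.046 on library totals, neither of them called. RPS2 had a lowest, median and highest CPM of 3786, 4161 and 4396 in footprints, against 4983, 5194 and 5650.4 in mRNA, with every footprint library below every mRNA library. Its log2 ratio was 0.20 on the TMM scale and −0.35 on library totals, called in opposite directions. RPS31 had a lowest, median and highest CPM of 3202, 3384 and 3698 in footprints, against 4909, 5285 and 5974 in mRNA, and its footprint libraries lay below the mRNA libraries too. The log2 ratio of RPS31 was −0.11 (SE 0.062, edgeR adjusted p = 0.109), which was not called, against −0.65 on library totals, which was.

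**Figure D3:**
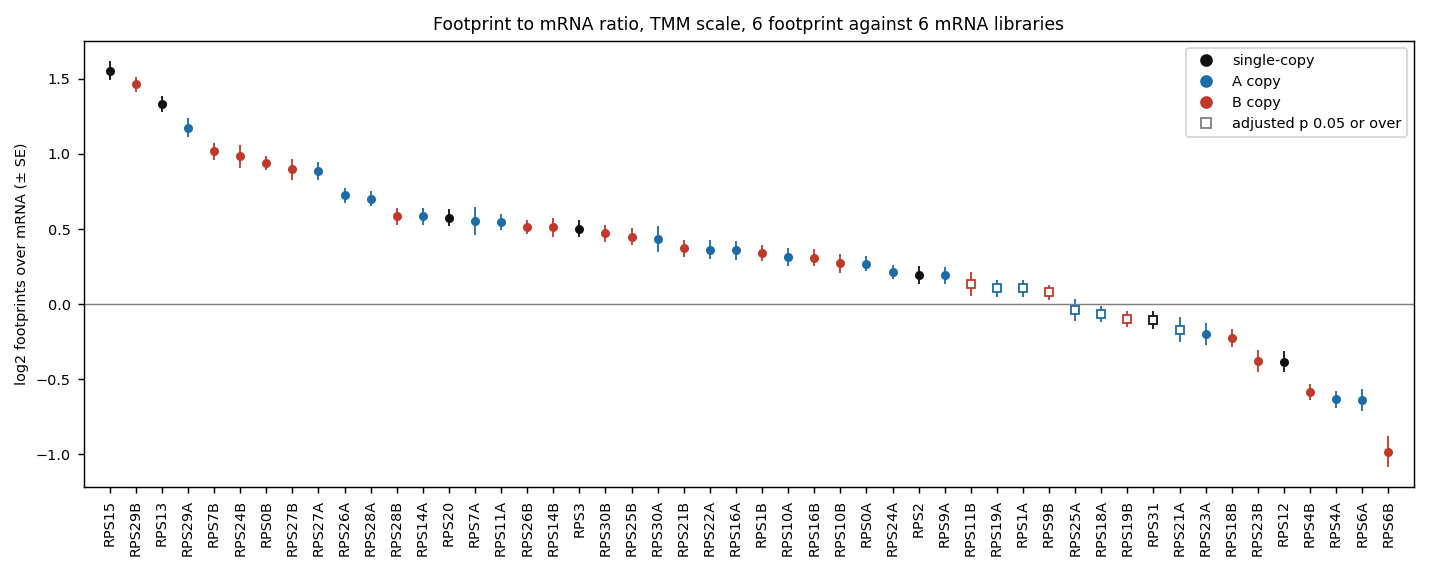
Log2 footprint to mRNA ratio on the TMM scale (vertical axis, ± SE from edgeR, 6 footprint against 6 mRNA libraries) for 50 of the 55 genes in order; filled symbols passed an adjusted p of 0.05 and colour gives the copy (RPS22A is drawn as an A copy). Values run from 1.56 for RPS15 to −0.98 for RPS6B, and on library totals all lie about 0.55 lower.

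The 2 copies of a protein had similar ratios. Over the 23 pairs the A and B log2 ratios correlated at a Pearson r of 0.84, as a description of points that share libraries. The median distance between copies was 0.20. How reads that match both copies were counted is not given, so this likeness may come in part from shared reads, which was not tested. Copies had opposite signs in 3 pairs on the TMM scale and in 4 on library totals, and RPS24 had the largest distance, at 0.77. A copies had a median log2 ratio of 0.27 and B copies of 0.37, and the 8 single-copy genes of 0.49. The 20 genes without an intron in the coding sequence had a median of 0.51 on the TMM scale, with 16 higher and 1 lower, against 0.27 in the other 35, with 20 higher and 9 lower. These groups of genes were described and not tested.

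The ratio was compared between preparations. The members' median log2 ratio was 0.32 in 4N, 0.43 in 4+3N and 0.29 in Nonrandom libraries, and 50 of 55 kept their sign in all 3. RPS15 had 1.51 in 4N, 1.59 in 4+3N and 1.57 in Nonrandom, and RPS6B −1.06, −0.71 and −1.17 in the same order. No member's ratio differed between 4N and Nonrandom or between 4+3N and Nonrandom by edgeR's adjusted p, where 0.0% and 0.0543% of all genes were called. DESeq2 also called none. At an unadjusted p under 0.05, 3 members in 4N and 7 in 4+3N passed, all of them higher than in Nonrandom. Of all genes 3.13% in 4N and 4.09% in 4+3N passed at that threshold, with 1.27% and 1.61% of all genes higher. RPS23A had the widest gap between preparations, with −0.10 in 4N, −0.0089 in 4+3N and −0.48 in Nonrandom.

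Within a pair the coding length is the same or nearly so, so that the A to B balance of counts needs no correction for length. How reads that match both copies were counted is not stated in the sources used here. Levels of near-identical copies, and the balance between them, are therefore uncertain. In footprints the A copy was higher in all 6 libraries for 13 pairs and the B copy for the other 10. In mRNA the A copy was higher in all 6 libraries for 13 pairs and the B copy for 7, and 3 pairs were mixed. The median absolute log2 A to B ratio was 0.48 in footprints and 0.66 in mRNA. The median SD over 6 libraries was 0.079 in footprints and 0.065 in mRNA.

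RPS9 and RPS14 were the most uneven. RPS9, an early-binding protein at the mRNA entry, had most of its counts on the B copy. RPS9A had 208 ± 19.4 and RPS9B 2012 ± 76.1 CPM in footprints (SD, n = 6). The log2 A to B ratio was −3.28 ± 0.11 in footprints and −3.39 ± 0.098 in mRNA. RPS14, a platform protein that in yeast represses its own B copy at the level of splicing, had most of its counts on the A copy. Its log2 A to B ratio was 2.96 ± 0.047 in footprints and 2.89 ± 0.094 in mRNA. RPS27 leaned to B, with −1.76 ± 0.079 in footprints and −1.75 ± 0.11 in mRNA. RPS7 and RPS24 leaned to A, with 1.28 ± 0.12 and 1.25 ± 0.21 in footprints. The most even pairs in footprints were RPS16 at −0.11 ± 0.022, RPS29 at −0.23 ± 0.071, RPS18 at 0.24 ± 0.11, RPS4 at 0.27 ± 0.059 and RPS0 at −0.29 ± 0.079.

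The balance between copies differed between footprints and mRNA in 15 of the 23 pairs by an exact two-sided permutation test over the 12 libraries, with p adjusted over the 59 named A and B pairs in the genome. It lay toward A in footprints in 7 pairs and toward B in 8. Of all 59 pairs 72.9% were called, so the members' share was near the background. The smallest p that the splits of 6 against 6 libraries allow is 0.00216, reached by the 5 largest shifts. Within an assay, libraries with the same replicate number deviated together. The 12 libraries are therefore not independent units, and these p-values and the SDs over 6 libraries may be too small. RPS24, a body protein, had a log2 A to B ratio of 1.25 ± 0.21 in footprints and 2.01 ± 0.096 in mRNA, a shift of −0.76. Its footprint ratios in 4N, 4+3N and Nonrandom were 1.06, 1.06 and 1.08 in replicates 1, against 1.40, 1.57 and 1.33 in replicates 2. RPS0 changed side. RPS0A (YGR214W) lies on chromosome VII at 920575 to 921788 and RPS0B (YLR048W) on chromosome XII at 242232 to 243349 (R64). RPS0A had 1762 ± 70.1 CPM in footprints and 2141 ± 90.8 in mRNA, and RPS0B had 2151 ± 93 in footprints and 1640.3 ± 58.7 in mRNA (SD, n = 6), so that B led in footprints and A in mRNA. The RPS0 shift was −0.67. RPS0 is needed for late steps of subunit maturation, and RPS21 binds next to it. RPS21 shifted by −0.55, RPS25 by −0.49 and RPS7 by −0.47, all toward B in footprints (adjusted exact permutation p = 0.00376 for each of the 5). For these 5 pairs the footprint and mRNA ranges did not overlap, which held for 12 of the 23 pairs (56.7% of 60 pairs in the genome).

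**Figure D4:**
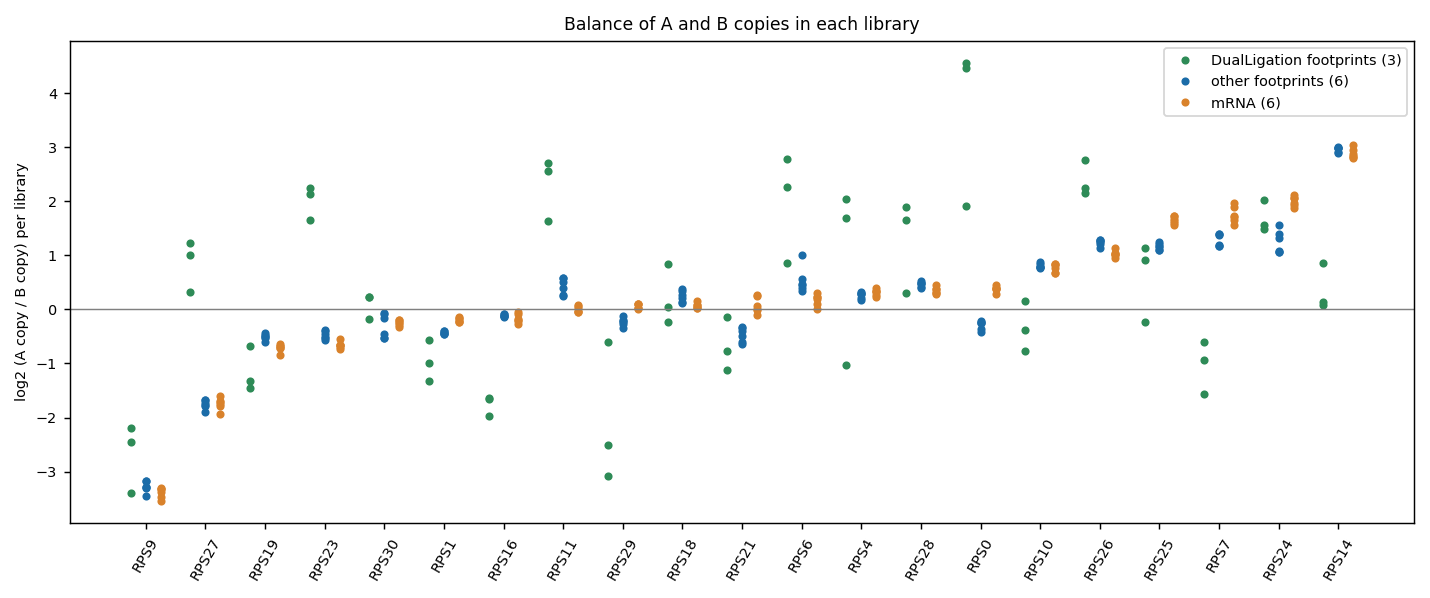
Log2 ratio of A to B copy counts in each library (vertical axis) for 21 of the 23 pairs, ordered by the mRNA mean; green points are 3 DualLigation footprint libraries, blue points the 6 other standard footprint libraries and orange points 6 mRNA libraries. RPS9 and RPS14 are the most uneven, RPS0 lies below 0 in the 6 footprint libraries and above 0 in mRNA, and DualLigation departs from the other footprint libraries without overlap in 14 of all 23 pairs.

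Footprint libraries made with and without random bases were compared. Between 4N and Nonrandom footprints none was called by edgeR or DESeq2, against 0.133% of all genes, and 5 were higher at an unadjusted p under 0.05, where 2.89% of all genes passed, 1.82% higher. Between 4+3N and Nonrandom footprints RPS30B rose, a protein whose gene in yeast, as RPS30A, encodes it without the fused ubiquitin-like part found in mammals. RPS30B had 388 and 427 CPM in 4+3N, against 298 and 273 in Nonrandom, with no overlap. The log2 difference was 0.54 (SE 0.074, edgeR adjusted p = 0.0163), and 0.304% of all genes were called, 0.266% higher and 0.038% lower. The call was lost without Nonrandom replicate 2 and without 4+3N replicate 2, where the adjusted edgeR p was 0.25 and 0.066, and with the earlier count list of Nonrandom replicate 1, and 2 members were called without 4+3N replicate 1.

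Footprint libraries with the same replicate number deviated together, and with the replicate number as a block more members passed. The numbers are those in the titles; the 4+3N library titled replicate 2 has number 1 in another label, so the blocked values of 4+3N and of the low comparisons rest on following its title. In 4N, 7 members rose and none fell, against 1.12% of all genes called in either direction. In 4+3N, 17 rose and 4 fell, against 9.31%. Both copies of RPS23 and RPS30 rose in both preparations. In 4+3N with the block, RPS30A and RPS30B had log2 differences of 0.56 and 0.53, RPS23A and RPS23B 0.51 and 0.50, and RPS6A and RPS6B 0.40 and 0.53. RPS12 was 0.29. RPS29A, RPS11A, RPS11B and RPS27B fell, the largest by 0.21 in RPS29A. In CPM, RPS23A had 544 and 478 in 4N and 623 and 565 in 4+3N, against 449 and 399 in Nonrandom, which lay below all 4 libraries with random bases. RPS6B had 114 and 93.2 in 4N and 151 and 114 in 4+3N, against 113 and 73.6 in Nonrandom. In mRNA no member was called in 4N or 4+3N against Nonrandom by edgeR with or without the block, or by DESeq2 without it, against 0.185% and 0.222% of all genes without it. At an unadjusted p under 0.05, 3 members were higher in 4N and 1 in 4+3N, against 2.86% and 2.81% of all genes higher, and 3.71% and 3.64% in either direction.

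The low libraries were set against the standard footprint libraries of the same preparation. In Nonrandom low 8 members fell and none rose, against 1.45% of all genes called, 1.01% higher and 0.445% lower. RPS30A had 122 and 141 CPM in Nonrandom low, against 268 and 189.8 in Nonrandom, and fell by 0.74 on the log2 scale (SE 0.16, edgeR adjusted p = 0.0136). These values did not overlap. RPS29A, RPS11A, RPS16A, RPS30B and RPS16B also fell, with log2 differences of −0.49, −0.47, −0.44, −0.42 and −0.41. Both copies of RPS16 and RPS30 are thus among the 8. The count of members called was 2 and 1 without Nonrandom low replicates 1 and 2, 4 and 5 without Nonrandom replicates 1 and 2, and 5 without either 4+3N low library. With the earlier count list of Nonrandom replicate 1 none of the 8 was called and all 8 turned positive, RPS30A to 0.27 and RPS16B to 0.47. With the replicate block 5 members rose and 14 fell, against 3.83% of all genes, RPS23B at 0.36 and RPS12 at 0.24 among those that rose.

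In 4+3N low 3 members rose and 2 fell, against 0.734% of all genes called, 0.657% higher and 0.0773% lower. RPS23B had 983 and 1106 CPM in 4+3N low, against 814 and 809 in 4+3N, a log2 difference of 0.48 (SE 0.10, edgeR adjusted p = 0.0231). RPS10A, a protein of the beak, and RPS12 rose by 0.44 and 0.40. All 5 calls were lost without either 4+3N low library and with the earlier count list. The number called was 3 and 2 without Nonrandom low replicates 1 and 2, and 8 and 2 without 4+3N replicates 1 and 2. On library totals, which lower every difference by 0.11, 1 member rose, RPS12, and 2 fell, and RPS23B and RPS10A had edgeR adjusted p of 0.0599 and 0.0941. With the replicate block 16 rose and 2 fell, against 2.61% of all genes, RPS21A and RPS6B at 0.61 and 0.61 leading.

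The difference between low and standard did not pass between the preparations for any member by edgeR, against 0.232% of all genes, 0.0193% higher and 0.213% lower, while DESeq2 called 2. At an unadjusted p under 0.05, 16 members were more positive in 4+3N and 1 more negative, against 2.74% and 2.3% of all genes. By edgeR's adjusted p, where no member passed with all 8 libraries, some passed when a library was left out. With the replicate block 12 passed, against 0.986% of all genes. Of these RPS6A had 0.84 and RPS6B 0.69. RPS6A had 236 and 224 CPM in 4+3N low, against 209 and 169 in 4+3N, and 105 and 101 in Nonrandom low, against 144 and 148 in Nonrandom. The 4+3N low libraries were thus the highest of these 8 for RPS6A, and the Nonrandom low ones the lowest.

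**Figure D5:**
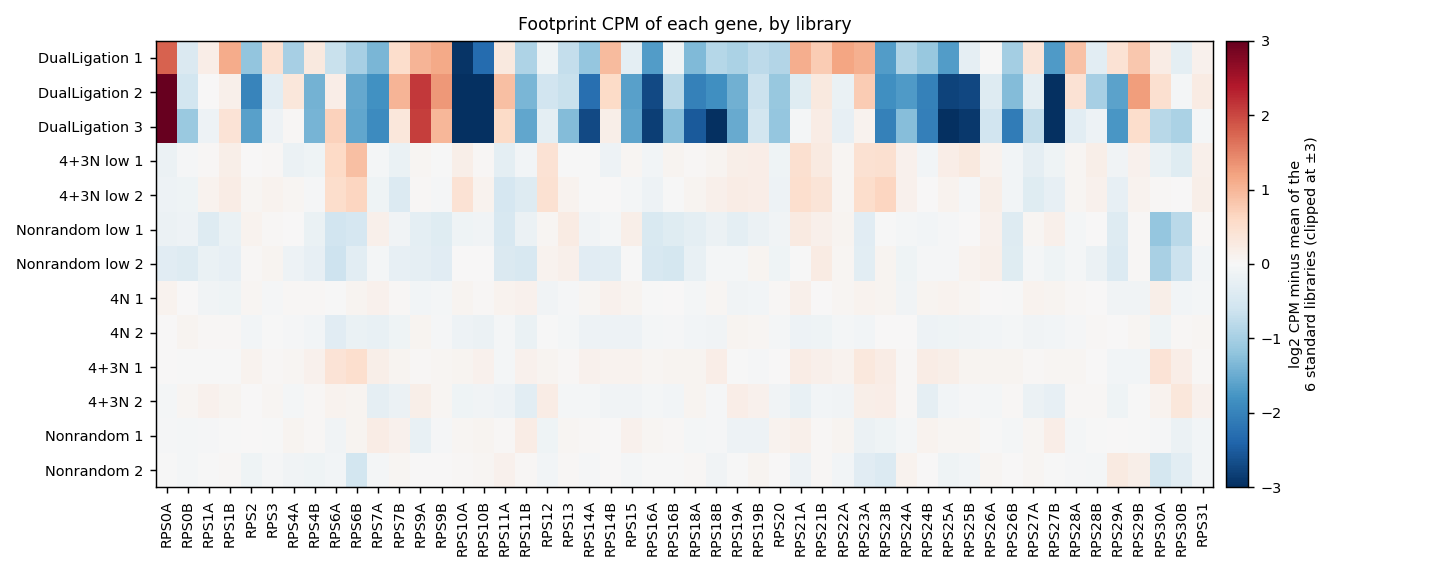
Log2 CPM of 50 of the 55 genes in each footprint library minus the mean of the 6 standard libraries of 4N, 4+3N and Nonrandom (colour, clipped at 3 on either side). DualLigation departs most, with RPS0A high and RPS10A, RPS10B and RPS27B low; in the low libraries RPS6A and RPS6B are high in 4+3N low and low in Nonrandom low, and RPS30A and RPS30B are low in Nonrandom low.

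DualLigation gave the largest differences among the footprint comparisons. Against the mean of the other 3 standard preparations 22 members rose and 21 fell by edgeR, where 65.7% of all genes were called, 33.1% higher and 32.6% lower, so that calls were common throughout the genome. DualLigation libraries differed among themselves, and limma with a separate weight for them called 35 members, 16 higher and 19 lower, against 51.2% of genes. On library totals every difference falls by about 0.67, and 11 members were called higher and 27 lower. Of all genes 916 were then called higher and 2918 lower, 72.3% of those tested. In CPM 10 members lay above all 6 other libraries in all 3 DualLigation libraries, 28 lay below and 17 overlapped, against 15.2% above and 53.2% below of 5664 genes. Under both scalings 11 members were called higher and 21 lower. With the earlier count list of Nonrandom replicate 1 edgeR called 13 members, and the share of all genes called with it is not given here.

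RPS0A had 5970.4, 34575 and 22027 CPM in DualLigation, against a lowest, median and highest of 1681, 1755 and 1885 in the other 6 libraries. The DualLigation libraries thus differed among themselves and all lay above the rest. The log2 difference was 4.33 (SE 0.48, edgeR adjusted p = 1.02e-04) on the TMM scale and 3.57 on library totals, and 3.74 on the TMM scale without DualLigation replicate 2. Its copy RPS0B had 1579.6, 1458 and 999 CPM in DualLigation, against 2051, 2149 and 2271, so that all 3 lay below the other 6. The log2 difference of RPS0B was −0.015 (SE 0.13, edgeR adjusted p = 0.926) on the TMM scale. On library totals RPS0B was called lower, at −0.68 (edgeR adjusted p = 0.0058). RPS9A had 419.5, 904 and 877 CPM in DualLigation, against 177, 210.0 and 234, and RPS9B 4429, 4925 and 4006, against 1926, 1999 and 2105. Both copies of RPS9 lay above the others, with log2 differences of 2.56 and 1.83. RPS29B, RPS7B, RPS23A, RPS11A and RPS1B followed, at 1.58, 1.34, 1.34, 1.32 and 1.25.

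RPS10 fell most. RPS10A had 121, 48.9 and 31.2 CPM in DualLigation, against 847, 966 and 997 in the other 6, and RPS10B had 109, 63.7 and 53.3, against 474, 549 and 582. Neither overlapped. The log2 differences were −3.22 (SE 0.35, edgeR adjusted p = 9.41e-05) and −2.20 (SE 0.18, edgeR adjusted p = 2.20e-05). RPS27B, RPS25A, RPS16A and RPS14A had −2.02, −1.79, −1.69 and −1.29. Of the single-copy genes RPS31 had 0.79, RPS3 0.68 and RPS12 0.35 on the TMM scale. On library totals they had 0.11, 0.038 and −0.32 and were not called, and their CPM in DualLigation overlapped the other 6 libraries. RPS2 had −0.92 and RPS20 −0.38 on the TMM scale, and both were called lower on library totals too. With limma RPS12 and RPS20 were not called, at adjusted p of 0.0699 and 0.109. RPS13 and RPS15 had −0.19 and −0.43 and did not pass on the TMM scale, while on library totals they were called lower, at −0.86 and −1.03. Their CPM in all 3 DualLigation libraries lay below the other 6, and RPS15 had 2663, 1049 and 1085, against 2927, 3274 and 3551.

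The A and B log2 differences between DualLigation and the other footprints correlated at a Pearson r of 0.31 over the 23 pairs, as a description, with a median distance of 1.02. Their signs were opposite in 12 pairs on the TMM scale and in 9 on library totals, and some of the 12 rest on a copy near 0, such as RPS0B at −0.015. The A to B balance lay outside the range of the other 6 footprint libraries in 14 of 23 pairs, against 65.0% of 60 pairs in the genome, and its mean had the other sign in 6. The median SD of the log2 A to B ratio was 0.48 over the 3 DualLigation libraries, against 0.079 over the other 6. RPS0 had a log2 A to B ratio of 1.92, 4.57 and 4.46 in DualLigation, against a mean of −0.29 ± 0.079 in the other 6 libraries. RPS27 had 0.32, 1.22 and 1.00, against −1.76 ± 0.079. RPS23 had 2.25, 2.13 and 1.65, against −0.48 ± 0.073, and RPS7 −0.61, −1.56 and −0.94, against 1.28 ± 0.12. In all 4 pairs the other copy led than in the other 6 libraries. RPS14 fell to 0.85, 0.13 and 0.087, against 2.96 ± 0.047.

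Other genes of the small-subunit pathway were read from the same fits. Of 14 assembly factors and chaperones of small-subunit proteins 10 had a higher footprint to mRNA ratio and 1 a lower one on the TMM scale, with a median log2 ratio of 0.35 beside 0.36 for the members. TSR2, the chaperone that hands RPS26 to the precursor, had 1.10 (edgeR adjusted p = 1.58e-13), and LTV1, an assembly factor bound to RPS3, 0.76 (edgeR adjusted p = 8.90e-11). Of 76 large-subunit protein genes 50 were higher and 18 lower, with a median of 0.56, and on library totals each of these values lies about 0.55 lower. Among the 6 of 7 regulators of ribosomal protein genes that also passed the filter on low counts in footprints alone, 4 were higher and 1 lower on the TMM scale. The lower one was FHL1, the forkhead factor on their promoters, at −0.39 (edgeR adjusted p = 5.35e-06). ASC1, a further protein of the small subunit not named RPS, had −0.02 (edgeR adjusted p = 0.782) and so was not called. In Nonrandom low against Nonrandom and in 4+3N low against 4+3N none of the 14 assembly factors, the 6 regulators tested or ASC1 was called by edgeR. At an unadjusted p under 0.05 there were 2 and 4 among them in all, against 9.34% and 10.6% of all genes.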

How the data were processed

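Counts of reads per gene were deposited by the authors for each of 13 footprint and 6 mRNA libraries. Per the submitters' processing notes CASAVA 1.8, Bowtie 1.0.0 and the sacCer3 genome were used. Assignment of reads to genes and the handling of reads with several matches are not given in the sources used here. Footprints of 28 to 32 nt came from RNase I digests, per the labels' protocols. Genes not listed in a file were set to 0. Of 5758 identifiers 5754 matched the R64 annotation, which gave names and lengths. The intronless genes were marked by hand from general knowledge.

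Samples were grouped by title. The tool was edgeR 4.0.16 under R 4.3.3: filterByExpr removed genes with low counts, TMM set the scale, and two-sided quasi-likelihood tests were adjusted by Benjamini-Hochberg over every gene that passed the filter, with a threshold of 0.05. The ratio had the preparation as a covariate. SE is the log2 difference over the square root of F. The A to B balance used log2 of counts plus 0.5 and exact permutation over libraries, for pairs with at least 20 counts over both copies in every library. limma 3.58.1 gave the DualLigation fit with a separate weight. CPM are counts divided by the library total and multiplied by a constant. Intervals for depth were not needed, since no member had a count below 122, and p-values cover the spread between libraries only.

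Named genes were the single-copy genes, up to 8 with the largest rise and fall among those called per comparison, the 4 highest and lowest per kilobase (among intronless genes), the 5 most and least even pairs, the 5 largest shifts and up to 4 genes with the smallest p per other list; genes named beyond these, such as those called with the replicate block, the second copies and LTV1, FHL1, RPS23A, RPS6A and RPS6B where they did not lead, were chosen after their values were seen. The members, lists and tests were chosen with earlier results of these data known. Some members enter every count and fit but are not reported here by name or drawn. The DualLigation libraries were kept out of the other footprint fits for their spread.

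Equal replicate numbers deviated together (correlations of deviations 0.53 to 0.70 among standard footprint groups, 0.13 to 0.36 in mRNA and 0.12 to 0.54 among standard and low groups, above 0.1 in all 12 pairs of groups), so a replicate block was run beside those tests. Between assays 3 of 9 pairs were above 0.1, and these were not treated as paired. The shared deviation within an assay remains in the tests of the ratio, of DualLigation and of the copy balance. Their SE and p-values may therefore be too small. Other settings were DESeq2 1.42.0 and its size factors, no filter, the first count list, summed copies, library totals and leaving out each library. On simulated counts the ratio test recovered 97% of 2-fold and 91% of 1.5-fold changes of 5479 genes tested, and the Nonrandom low test 88% and 71% of 5145. The simulation changed a small set of genes, with the same relative spread for every gene and no shared deviation by replicate number. In the real ratio fit most genes were called, so these rates are not the power in these data.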

Additional observations from a re-analysis of the deposited data

Results flagged for a closer look

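The file of Nonrandom footprint replicate 1 holds an earlier, first list of counts that was used only as an alternative setting. It gives the 55 small-subunit genes 1.88% of its 3520161 counts, against 7.12% of the 11656814 counts in the second list. No gene has a higher count in the first list than in the second. The median of the first over the second count is 0.81 over all listed genes, 0.090 over the members, with a range of 0.053 to 0.36, and 1 over genes with 20 or fewer counts in the second list. Across genes log2 CPM of the first list correlated with Nonrandom footprint replicate 2 at a Pearson r of 0.959, and of the second at 0.997. What the first list counts is not given in the sources used here.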

How the results depend on the processing

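The first count list of Nonrandom footprint replicate 1 changed most. With it the number of members called was 12 in the ratio in place of 46, 0 in 4+3N against Nonrandom footprints, 0 in either low comparison and 13 in DualLigation in place of 43, and RPS2 in the ratio stood at −0.11. In Nonrandom low, genes that fell reversed, without passing, to 0.27 (RPS30A), 0.29 (RPS29A), 0.37 (RPS11A), 0.44 (RPS16A), 0.45 (RPS30B) and 0.47 (RPS16B). The cause was not tested. On library totals, added after seeing the data, RPS2 and RPS3 reversed in the ratio to −0.35 and −0.046, and 3 members were called in 4+3N low. Summing copies leaves 32 proteins to test, of which 27 were called in the ratio, 0 in 4+3N footprints, 3 in Nonrandom low, 2 in 4+3N low and 24 in DualLigation. DESeq2 called 4 in 4+3N footprints, 9 in 4+3N low and 2 in the low difference, where DESeq2 size factors and no filter each called 1. Adding DualLigation to the fit left 0 in 4+3N footprints. With the replicate block 7 were called in 4N and 21 in 4+3N footprints, 19 in Nonrandom low, 18 in 4+3N low and 12 in the low difference, and the block moved no other count of members by over 1.5 times; among assays and in DualLigation, where numbers do not pair, it gave 50 and 44. Leaving out each library gave 45 to 50 in the ratio, 0 to 2 in 4+3N footprints, 1 to 9 in Nonrandom low, 0 to 8 in 4+3N low, 0 to 3 in the low difference, 37 to 46 in DualLigation, 15 to 17 pairs in the copy balance and 0 in the other comparisons. Of named single genes and pairs under these alternatives, 659 values kept direction and side of the threshold, 53 kept direction only and 9 reversed. With 2 libraries a group, small differences may be missed. The share of all genes called is not given for the alternative settings in this paragraph. Their counts of members therefore do not show whether a change is particular to the family.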
